A study of Homo sapiens with 6 samples.

Results

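The nuclear pore and nuclear transport genes were examined after stable knockdown of STIL in the human bladder cancer line EJ, which is an established cell line. The set holds every gene of the deposited log2 CPM tables (CPM are read counts scaled to a common library size) whose symbol names a numbered nucleoporin (NUP), an importin alpha or beta (KPNA, KPNB, IPO, TNPO) or an exportin (XPO), plus RAN, RANBP1, RANBP2, RANGAP1, RCC1, CSE1L, TPR, NDC1 and AHCTF1. This gave 54 members of 15953 genes. There were 2 groups of 3 libraries, EJ cells with the lentivirus shSTIL, directed against STIL, and EJ cells with its negative control shNC, both of one line and with no other treatment named. The column headings and the series design text call the same groups siSTIL and siNC; the sample labels and methods, which name short hairpins, were followed here. The hairpin sequence, the number of hairpins and whether the stable cells were clones or pools are not given in the sources used here, nor whether the 3 libraries of a group came from separate cultures, so p-values measure the spread between these libraries, which may be technical.

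Nuclear pores are large ring-shaped assemblies of nucleoporins that span the nuclear envelope. Stacked outer and inner rings form the scaffold, nucleoporins rich in phenylalanine-glycine repeats (FG) fill the channel, and filaments and a basket face the cytoplasm and the nucleus. Importins carry cargo in and exportins carry it out. Direction comes from the small GTPase Ran, which is loaded with GTP by RCC1 on chromatin and made to hydrolyse it by RANGAP1 at the cytoplasmic side. In dividing cells pores must be doubled before mitosis and are taken apart and rebuilt around it, and several transport factors also act on the mitotic spindle.

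STIL itself, the targeted gene, had a log2 CPM of 5.98, 6.10 and 6.01 in the shNC libraries and 4.05, 4.06 and 4.01 in the shSTIL libraries, so 25.2% of the control level was left. The libraries held 16214790 to 16901566 reads each. Genes with an adjusted p under 0.01 (limma over all genes, Benjamini-Hochberg adjustment) were called DEGs, the threshold used by the study. Among all genes 23.6% were called lower and 23.5% called higher in shSTIL, 47.1% in all. For the 11319 genes whose mean log2 CPM reached 1 these shares were 31.4%, 30.5% and 61.9%. Log2 fold changes are shSTIL minus shNC. A list of 20 DNA replication genes, given here as context, had 19 members called lower and none called higher, with a median log2 fold change of -1.25. It was chosen with its fall in these data already known. Of 14 urothelial markers measured, 4 were called lower and 2 higher. KRT7, KRT8 and KRT18 had a mean log2 CPM of 6.50, 8.56 and 9.32 in shNC, and PPARG, ELF3 and FOXA1 of 4.28, 3.67 and 3.33. The uroplakins had means of 1.02 or below in shNC, and UPK2, KRT5, KRT20, GATA3 and TP63 lay under 0 in every library. ELF3 (log2 fold change -1.54), UPK1B (-1.12), KRT8 (-0.70) and FOXA1 (-0.53) fell, and KRT7 (0.49) and PPARG (0.26) rose. Of epithelial junction markers, OCLN and CLDN4 had means of 6.02 and 2.29 in shNC, and EPCAM, CDH1 and CLDN7 of 0.16, -2.06 and -2.65. Of mesenchymal markers, VIM, FN1, ZEB1, CDH2 and SNAI2 had means of 10.5, 6.44, 4.32, 1.65 and -1.72 in shNC. In these lists FN1 (-1.19), VIM (-0.68) and CLDN4 (-0.65) were called lower and OCLN (0.29) higher. Of 9 markers of other cell types 3 were measured, CD68, PECAM1 and ALB, at mean log2 CPM of 3.51, -1.17 and -2.71 in shNC, and none was called. Fewer cells in a cycle phase and less RNA per cell cannot be told apart in bulk RNA.

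Of the 54 members, 24 were called lower and 13 higher in shSTIL, and 17 did not pass the test. In shares these were 44.4% and 24.1% of the members, against 23.6% and 23.5% of all genes. Of the 52 members whose mean log2 CPM reached 1, 23 were called lower and 13 higher, against 31.4% and 30.5% of genes of that level; these are counts beside a background and were not tested. The median log2 fold change of the members was -0.08, against 0.0052 over all genes. For 25 members every shSTIL value lay below every shNC value, and for 16 every one lay above. Such separation was seen in 30.5% and 29.9% of all genes (60.3% in either direction), and in 38.5%, 37.2% and 75.7% of those whose mean log2 CPM reached 1. An absolute log2 fold change of at least 0.5 was reached by 16 called members, 11 of them lower, against 21.1% of all genes and 25.2% of those at that level. Only 3 called members, XPO7, IPO9 and KPNA7, changed by at least 1 on the log2 scale, and 5.96% of all genes and 4.81% of those at that level did. The 52 members at that level rested on 240 to 12202 reads per library. The other members, KPNA7 and NUP210L, had at most 16 reads in a library.

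**Figure D1:**
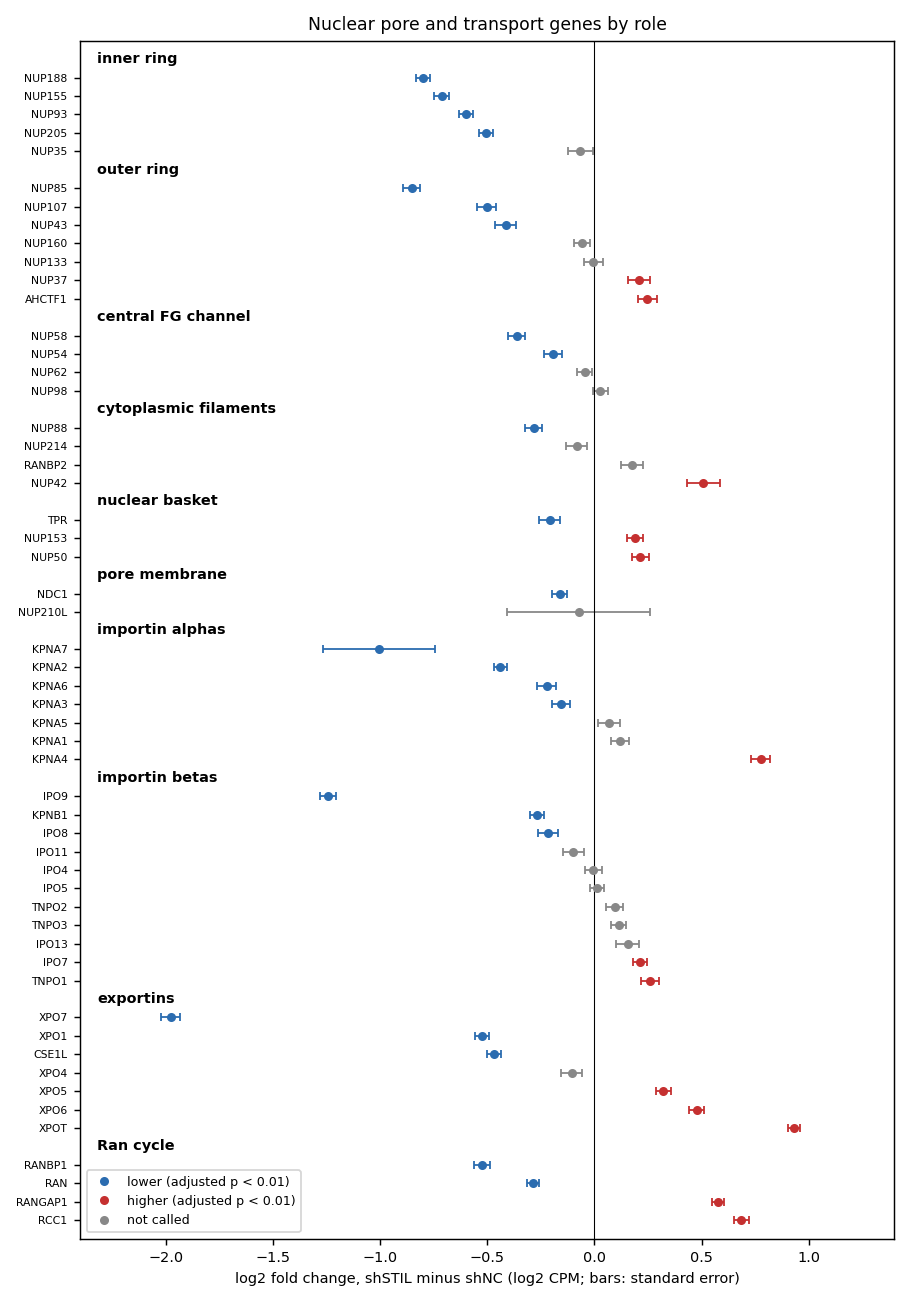
Log2 fold change (shSTIL minus shNC, log2 CPM) of the 54 members by their role, with the limma standard error as bars and the call as colour. All 4 called inner ring genes lie left of 0, the Ran cycle and exportin genes lie on both sides, and XPO7 at -1.98 lies farthest out.

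**Figure D2:**
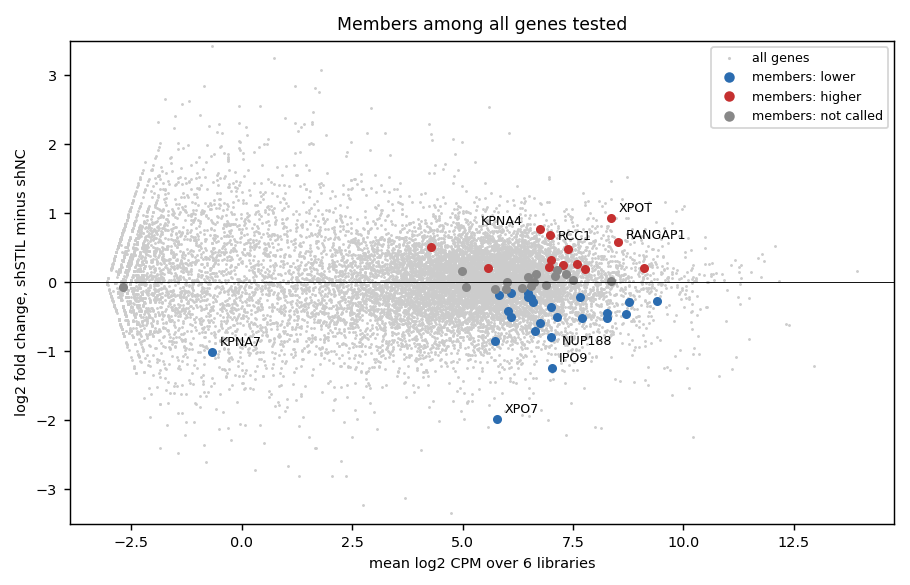
Log2 fold change (shSTIL minus shNC) against the mean log2 CPM over the 6 libraries, for all 15953 genes in grey and the members coloured by call. Most members sit at middle to high levels, where XPO7 (-1.98) and XPOT (0.93) mark the range.

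In GENCODE 29 (GRCh38) IPO9 lies at chr1:201829141-201884294 and NUP188 at chr9:128947699-129007096, CSE1L at chr20:49046246-49096960, KPNA2 at chr17:68035519-68046842 and XPOT at chr12:64404350-64451127. For 46 of the 54 members RefSeq (GRCh38.p14) gives a gene start, and the 250 bases before it were read. RANBP1, XPO7, KPNA7, KPNA5, KPNA4, KPNB1, NUP43 and AHCTF1 were not in the table. The windows of 4 members are shown because these genes carry main results: IPO9 and NUP188 among the largest falls, CSE1L, the exportin of importin alpha, and XPOT with the largest rise. The RefSeq start lay 16 bases past the GENCODE start in IPO9, 66 in CSE1L and 42 in XPOT, and bases inside the GENCODE gene are left out of the printed windows. All 4 are on the plus strand, IPO9 at chr1:201828907-201829140, NUP188 at chr9:128947449-128947698, CSE1L at chr20:49046062-49046245 and XPOT at chr12:64404142-64404349. Capitals mark matches, on either strand, to any of the words searched: CCAAT (the box bound by NF-Y), TTTGAA or TTCGAA (the cell cycle homology region, CHR), TTTCCCGC, TTTGGCGC, TTTCGCGC or TTTGCCGC (E2F), CACGTG (E-box), GCATGCGC (NRF1), CCGGAAGT (ETS) and TGATGNAA (ATF4-type).
IPO9: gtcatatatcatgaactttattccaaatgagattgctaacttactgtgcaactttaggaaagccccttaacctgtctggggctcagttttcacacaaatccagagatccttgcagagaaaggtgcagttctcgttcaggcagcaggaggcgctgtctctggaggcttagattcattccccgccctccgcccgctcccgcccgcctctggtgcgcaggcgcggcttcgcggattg
NUP188: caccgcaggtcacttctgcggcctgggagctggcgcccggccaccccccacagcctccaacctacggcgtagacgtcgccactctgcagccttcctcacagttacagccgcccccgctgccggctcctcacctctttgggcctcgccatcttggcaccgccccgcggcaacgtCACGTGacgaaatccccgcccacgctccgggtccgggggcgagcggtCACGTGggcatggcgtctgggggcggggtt
CSE1L: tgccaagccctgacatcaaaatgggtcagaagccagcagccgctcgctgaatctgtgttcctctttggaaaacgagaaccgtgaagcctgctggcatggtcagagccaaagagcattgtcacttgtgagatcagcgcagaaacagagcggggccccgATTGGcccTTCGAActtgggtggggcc
XPOT: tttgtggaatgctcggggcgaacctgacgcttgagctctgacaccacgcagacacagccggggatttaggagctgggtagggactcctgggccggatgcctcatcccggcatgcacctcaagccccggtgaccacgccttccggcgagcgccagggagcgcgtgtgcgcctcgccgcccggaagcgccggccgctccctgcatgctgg
The CSE1L window holds a CCAAT match that starts 93 bases before the RefSeq start and a CHR match that starts 85 bases before it. The NUP188 window holds 2 E-boxes, and the XPOT window holds none of the words. In IPO9 a CCAAT match that starts 20 bases before the RefSeq start crosses the GENCODE start and is not printed whole. The window of KPNA2, an importin alpha, is not printed, since 216 of its 250 bases lie inside the GENCODE gene. Its CHR match and 2 CCAAT matches, 99, 89 and 58 bases before the RefSeq start, lie in those bases.

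Across the members with a window, CCAAT was found in 10 of the 19 called lower, 4 of the 11 called higher and 7 of the 16 not called, against 34.7% of 12621 gene windows. CHR words were in 4, 3 and 3 of these, against 10.3%. E-boxes were in 3, 2 and 2, against 8.4%, and NRF1 words in 1, 2 and 2, against 4.29%. ETS words were in 2, 1 and 4, against 6.18%. E2F words were in 1 window in all, that of IPO11, against 4.13%, and the ATF4-type word only in that of NUP153, against 1.64%. The words were chosen with the fold changes known, a match is a description of the letters in the window, and no test was made. These counts use the full windows before the RefSeq starts, which can overlap GENCODE genes as above.

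The inner ring is the scaffold layer that anchors the central channel. Of its 5 members, 4 were called lower and none higher, beside 31.4% and 30.5% of genes whose mean log2 CPM reached 1. NUP188 had a log2 CPM of 7.42, 7.41 and 7.36 in shNC and 6.59, 6.59 and 6.61 in shSTIL, a log2 fold change of -0.80 (SE 0.03, limma adjusted p = 2.9e-10). NUP155 had 6.98, 7.03 and 7.01 in shNC and 6.32, 6.27 and 6.29 in shSTIL, a log2 fold change of -0.71 (SE 0.03, limma adjusted p = 1.3e-09). NUP93, the adaptor that links scaffold and channel, had 7.04, 7.05 and 7.07 in shNC and 6.45, 6.47 and 6.44 in shSTIL. Its log2 fold change was -0.60 (SE 0.03, limma adjusted p = 4.1e-09). For the 3 genes every shSTIL library lay below every shNC library by far more than the replicates differed. NUP205, the paralog of NUP188, fell by 0.51 on the log2 scale (adjusted p = 2.5e-08). NUP35 had a log2 fold change of -0.07 (SE 0.06, adjusted p = 0.389) and overlapping groups. Per kilobase of coding transcript, the 5 genes had shNC levels of 3.98 to 4.89 on the log2 scale, with NUP188 and NUP205 highest.

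Of the 7 members of the outer ring, or Y complex, 3 were called lower and 2 higher, beside 31.4% and 30.5% of genes of that level. NUP85 had a log2 CPM of 6.16, 6.16 and 6.18 in shNC and 5.28, 5.33 and 5.32 in shSTIL, so that 55.3% of the control level was left (log2 fold change -0.85, SE 0.04, limma adjusted p = 1.1e-09). NUP107 fell by 0.50 (adjusted p = 3.6e-07) and NUP43 by 0.41 (adjusted p = 8.2e-06) on the log2 scale. The scaffold subunits NUP160 and NUP133 had log2 fold changes of -0.06 (SE 0.04, adjusted p = 0.211) and -0.0047 (SE 0.05, adjusted p = 0.945). NUP37 rose by 0.21 (adjusted p = 0.00357), and the call was lost in 8 of 14 alternative fits (other scalings, filters and tools, a replicate block and single libraries left out, all testing against no change). AHCTF1, which encodes the chromatin-binding protein that seeds pore assembly after mitosis, had 7.09, 7.22 and 7.16 in shNC and 7.50, 7.35 and 7.36 in shSTIL. Its log2 fold change was 0.25 (SE 0.04, limma adjusted p = 3.4e-04), the groups did not overlap, and the call was lost in 7 of 14 fits. SEH1L and SEC13, further Y complex genes outside the naming rule, had log2 fold changes of 0.16 (adjusted p = 0.00628) and 0.02 (adjusted p = 0.675).

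In the FG channel NUP58 fell by 0.36 (adjusted p = 3.5e-06) and NUP54 by 0.19 (adjusted p = 0.00145) on the log2 scale. The call of NUP54 was lost in 5 of 14 fits. NUP62, the partner of NUP58 and NUP54, had a log2 fold change of -0.05 (SE 0.04, adjusted p = 0.31). NUP98 had 0.03 (SE 0.03, adjusted p = 0.543), and for NUP62 and NUP98 the groups overlapped. Of the 4 channel genes, 2 were called lower and none higher, beside 31.4% and 30.5% of genes whose mean log2 CPM reached 1. The NDC1 gene, which encodes a membrane anchor of the pore, had 6.54, 6.57 and 6.59 in shNC and 6.40, 6.39 and 6.42 in shSTIL, a log2 fold change of -0.16 (SE 0.03, limma adjusted p = 0.00113). The groups were apart, but by a small step. NUP210L was at 0 to 2 reads per library, too few to compare.

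On the cytoplasmic side NUP88 fell by 0.28 on the log2 scale (adjusted p = 2.8e-05), and its partner NUP214 had a log2 fold change of -0.08 (SE 0.05, adjusted p = 0.177). NUP42, which helps mRNA leave the pore, had 3.91, 4.14 and 4.06 in shNC and 4.63, 4.54 and 4.47 in shSTIL. Its log2 fold change was 0.51 (SE 0.08, limma adjusted p = 6.6e-05) at 240 to 421 reads, with no overlap. GLE1, the mRNA export factor that NUP42 binds, is outside the naming rule and was the largest fall among the 7 other pore genes analysed, at a log2 fold change of -1.05 (SE 0.05, adjusted p = 2.3e-09). RANBP2, a filament component that binds Ran, had 7.02, 7.06 and 7.06 in shNC and 7.37, 7.16 and 7.13 in shSTIL. The groups did not overlap, but 1 shSTIL library stood above the other 2, and the log2 fold change of 0.18 (SE 0.05, adjusted p = 0.0119) missed the threshold. It passed the threshold in 4 of 14 alternative fits. RSEM can divide reads between RANBP2 and its near-identical RGPD copies, so its values are uncertain. Among these copies RGPD8 ran from 3.70 to 5.80 in shNC and from 6.04 to 6.31 in shSTIL. It was the only 1 of the 7 copies called, and higher (log2 fold change 1.74, adjusted p = 0.00203). RGPD5 ran from 6.65 to 7.14 in shNC and from 7.05 to 7.19 in shSTIL and was not called (adjusted p = 0.0896). Within shNC, RGPD8 stood highest in replicate 2, where RGPD5 stood lowest. RGPD8 varied more within shNC than RANBP2 did, and the part of shared reads in either value was not tested.

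The nuclear basket had all 3 genes called, but not in one direction, beside 61.9% of genes whose mean log2 CPM reached 1. TPR, its long coiled-coil filament, had 7.69, 7.81 and 7.76 in shNC and 7.66, 7.50 and 7.47 in shSTIL, a log2 fold change of -0.21 (SE 0.05, limma adjusted p = 0.00212). The groups were separated by a narrow gap, and the call was lost in 8 of 14 fits. NUP153 and NUP50, which dock and release importin complexes, rose by 0.19 (adjusted p = 6.4e-04) and 0.21 (adjusted p = 3.6e-04) on the log2 scale, calls lost in 6 and 5 of 14 fits. The log2 ratio of NUP153 over TPR reads was -0.08, -0.08 and -0.06 in shNC and 0.25, 0.37 and 0.36 in shSTIL (p = 0.1 by an exact two-sided permutation test, which cannot go lower with 3 libraries a group). NUP153 rose and TPR fell without overlap, so the separation of their ratio was already fixed and its p-value adds no support. Of the 7 other pore genes analysed, 2 were called lower and 4 higher, beside 31.4% and 30.5% of genes of that level. AAAS fell by 0.21 (adjusted p = 0.00357) besides GLE1, and POM121 and POM121C rose by 0.33 (adjusted p = 1.6e-06) and 0.25 (adjusted p = 6.3e-05); they are near-identical copies whose reads could be shared.

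Each of the 4 Ran cycle genes was called, RAN and RANBP1 lower and RCC1 and RANGAP1 higher. Of genes whose mean log2 CPM reached 1, 61.9% were called in either direction. RAN, the GTPase, had 8.93, 8.90 and 8.92 in shNC and 8.64, 8.62 and 8.63 in shSTIL, a log2 fold change of -0.29 (SE 0.03, limma adjusted p = 1.3e-06). RANBP1, which frees Ran-GTP from transport receptors together with RANGAP1, had 8.02, 7.90 and 7.98 in shNC and 7.42, 7.49 and 7.42 in shSTIL, a log2 fold change of -0.52 (SE 0.04, limma adjusted p = 6.6e-08). For RAN and RANBP1 each of the 3 shSTIL libraries lay below every shNC library. RCC1, the nucleotide exchange factor, had 6.65, 6.59 and 6.70 in shNC and 7.33, 7.35 and 7.32 in shSTIL, so its level was 161% of control (log2 fold change 0.69, SE 0.04, limma adjusted p = 2.5e-09). RANGAP1, the GTPase activator, had 8.23, 8.22 and 8.24 in shNC and 8.82, 8.78 and 8.82 in shSTIL, 149% of control (log2 fold change 0.58, SE 0.03, limma adjusted p = 1.8e-09). For RCC1 and RANGAP1 each of the 3 shSTIL libraries lay above every shNC library, so the groups did not overlap for any of the 4 genes. The log2 ratio of RCC1 over RAN reads was -2.27 ± 0.04 in shNC and -1.30 ± 0.02 in shSTIL (SD, n = 3; exact two-sided permutation test, p = 0.1). That of RANGAP1 over RAN was -0.69 ± 0.0079 and 0.18 ± 0.01 (SD, n = 3, the same exact p = 0.1). In both ratios a gene that rose without overlap stands over one that fell without overlap. Their separation was fixed by those changes, and the p-values of the ratios add no support. Among other Ran cofactors, RANGRF, a Ran-binding guanine nucleotide release factor, rose by 0.49 on the log2 scale (adjusted p = 1.8e-06). NUTF2, the import carrier of Ran itself, fell by 0.17 on the log2 scale (adjusted p = 0.00395).

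**Figure D3:**
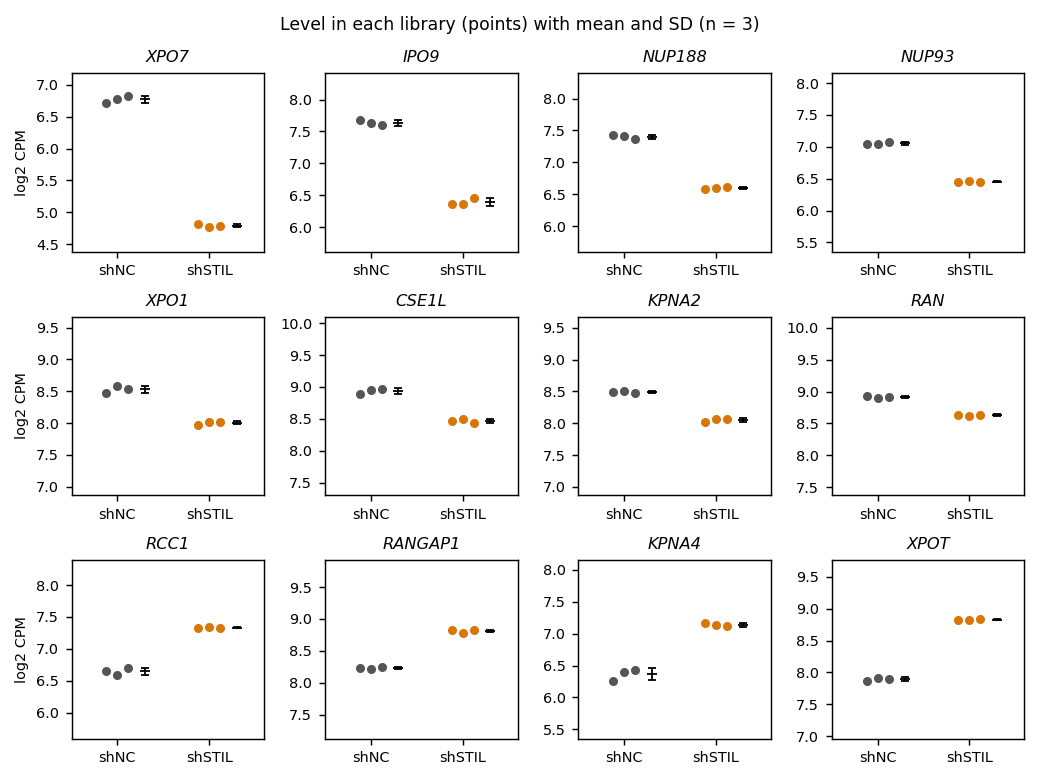
Log2 CPM of 12 members in each shNC and shSTIL library (points), with the mean and SD (n = 3) beside them and the same span of log2 units in every panel. In each panel the 3 shSTIL points lie apart from the 3 shNC points, lowest for XPO7 (4.78 to 4.82 against 6.71 to 6.82) and higher in shSTIL for RCC1, RANGAP1, KPNA4 and XPOT.

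Importin alphas are adaptors that read the classical nuclear localisation signal and join cargo to importin beta. Of the 7, KPNA2, KPNA3, KPNA6 and KPNA7 were called lower and KPNA4 higher. Of all genes 23.6% were called lower and 23.5% higher, and 31.4% and 30.5% of those whose mean log2 CPM reached 1. KPNA2, by far the most abundant per length, had 8.49, 8.51 and 8.48 in shNC and 8.01, 8.07 and 8.07 in shSTIL, a log2 fold change of -0.44 (SE 0.03, limma adjusted p = 3.9e-08). KPNA4 had 6.26, 6.40 and 6.43 in shNC and 7.17, 7.13 and 7.11 in shSTIL, 171% of control (log2 fold change 0.78, SE 0.04, limma adjusted p = 7.4e-09). KPNA3, its closest relative, fell by 0.16 on the log2 scale (adjusted p = 0.00593), a change that lost its call in 9 of 14 fits. KPNA6 had -0.22 (adjusted p = 8.8e-04), lost in 6 fits. KPNA1 and KPNA5 had 0.12 (SE 0.04, adjusted p = 0.0258) and 0.07 (SE 0.05, adjusted p = 0.293) with overlapping groups. KPNA7 had 10 to 16 reads in shNC and 4 to 7 in shSTIL, and its log2 fold change of -1.01 (adjusted p = 0.00499) lost the call in 11 of 13 fits.

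The composition of the family shifted with these changes. Taking CPM per kilobase of the longest coding transcript, KPNA2 made up 71.2%, 70.3% and 69.9% of importin alpha transcripts in shNC and 60.8%, 62.7% and 63.1% in shSTIL. The share of KPNA4 was 4.41% ± 0.23 in shNC and 9.04% ± 0.21 in shSTIL, and that of KPNA1 was 6.84% ± 0.16 and 8.89% ± 0.34 (SD, n = 3). Shares of shNC and shSTIL were apart for all but KPNA6 of the 7 genes (p = 0.1 by the exact permutation test, adjusted p = 0.125 over the 25 shares computed in 3 families). A share depends on the other genes of the family and is not a change of its own gene. KPNA1 was not called, and the mean share of KPNA3 was 7.76% in shNC and 8.34% in shSTIL although its level fell. The family total per kilobase was 7.70 ± 0.02 in shNC and 7.44 ± 0.01 in shSTIL on the log2 scale (SD, n = 3, exact p = 0.1).

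**Figure D4:**
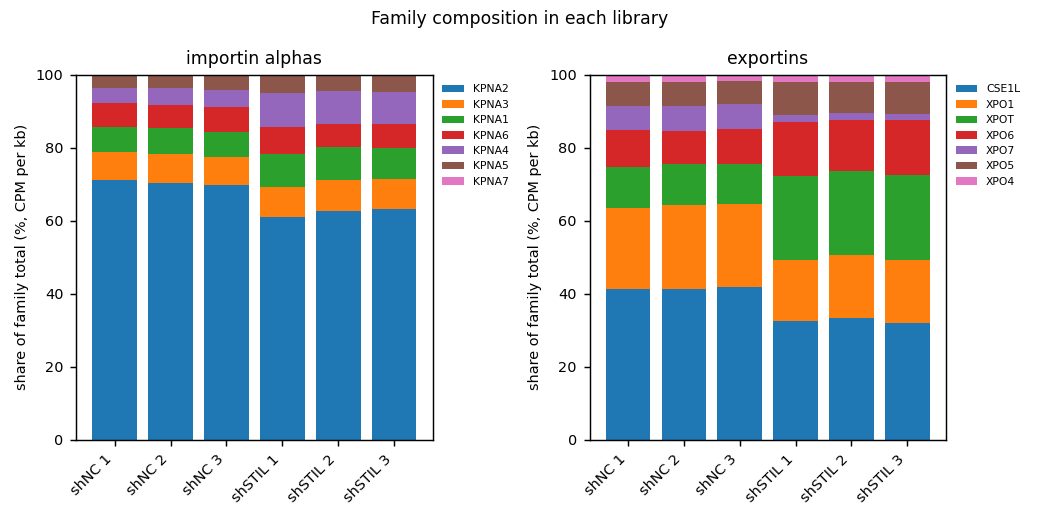
Share of each gene in the summed CPM per kilobase of its family, in percent, for importin alphas (left) and exportins (right) in each of the 6 libraries. KPNA2 takes 69.9% to 71.2% in shNC and 60.8% to 63.1% in shSTIL, and XPOT takes 11.1% to 11.2% and 23.0% to 23.3% of the exportins.

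Importin betas are the receptors that pass through the pore. Of the 11, 3 were called lower and 2 higher, beside 31.4% and 30.5% of genes whose mean log2 CPM reached 1. The other 6 did not pass. IPO9, an importin of histones and actin, had 7.68, 7.62 and 7.59 in shNC and 6.36, 6.36 and 6.46 in shSTIL. This was 42.3% of control (log2 fold change -1.24, SE 0.04, limma adjusted p = 2.6e-11), and no alternative fit moved it outside -1.28 to -1.22. KPNB1, the partner of importin alpha and, per kilobase, the most abundant of this family, fell by 0.27 (adjusted p = 9.1e-06) on the log2 scale, and IPO8 by 0.22 (adjusted p = 0.00144), a call lost in 7 of 14 fits. TNPO1, the carrier of many RNA-binding proteins, had 7.38, 7.55 and 7.48 in shNC and 7.78, 7.70 and 7.72 in shSTIL. Its log2 fold change was 0.26 (SE 0.04, limma adjusted p = 1.3e-04), and the groups did not overlap, but 5 of 14 fits lost the call. IPO7, an importin of ribosomal proteins, rose by 0.21 (adjusted p = 8.3e-05). IPO4, IPO5 and IPO11 had log2 fold changes of -0.0050, 0.01 and -0.10, with adjusted p from 0.0999 to 0.931. TNPO2, TNPO3 and IPO13 had 0.09, 0.11 and 0.15, with adjusted p from 0.0128 to 0.0591. IPO9 was 4.17% ± 0.18 of the summed importin beta transcripts per kilobase in shNC and 1.81% ± 0.09 in shSTIL (SD, n = 3, exact permutation p = 0.1), while the share of IPO7 was 3.83 percentage points higher in shSTIL. The family total was 8.70 ± 0.02 and 8.66 ± 0.02 on the log2 scale (SD, n = 3, exact permutation p = 0.2).

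The exportins held both the largest fall and the largest rise of the members. XPO7, an exportin with a broad range of cargo that is known from red cell maturation, had 6.71, 6.78 and 6.82 in shNC and 4.82, 4.78 and 4.78 in shSTIL. Only 25.4% of its control level was left (log2 fold change -1.98, SE 0.04, limma adjusted p = 1.7e-12), on 1679 to 1796 reads in shNC and 465 to 481 in shSTIL. XPOT, which exports mature tRNA, had 7.86, 7.91 and 7.90 in shNC and 8.82, 8.82 and 8.83 in shSTIL, 191% of control (log2 fold change 0.93, SE 0.03, limma adjusted p = 2.8e-11). In both genes the gap between the groups was many times the spread within either.

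XPO1, the main exportin of proteins with leucine-rich export signals, had 8.47, 8.58 and 8.54 in shNC and 7.98, 8.02 and 8.02 in shSTIL, a log2 fold change of -0.52 (SE 0.03, limma adjusted p = 2.0e-08). CSE1L, which returns importin alpha to the cytoplasm, had 8.89, 8.95 and 8.97 in shNC and 8.47, 8.49 and 8.44 in shSTIL, a log2 fold change of -0.47 (SE 0.03, limma adjusted p = 4.0e-08). CSE1L fell beside its cargo KPNA2, and the log2 ratio of their reads was 0.44 ± 0.04 in shNC and 0.42 ± 0.05 in shSTIL (SD, n = 3, exact permutation p = 0.5), a difference of -0.03. XPO6, the exportin of actin and profilin, had 7.18, 7.10 and 7.15 in shNC and 7.65, 7.57 and 7.64 in shSTIL, a log2 fold change of 0.48 (SE 0.04, limma adjusted p = 8.8e-08). XPO5, the exportin of precursor microRNAs, had 6.85, 6.89 and 6.80 in shNC and 7.20, 7.15 and 7.15 in shSTIL, a log2 fold change of 0.32 (SE 0.04, limma adjusted p = 3.8e-06). XPO4 had -0.11 (SE 0.05, adjusted p = 0.0864) with overlapping groups. Per kilobase, CSE1L made up 41.4% ± 0.40 of the exportin transcripts in shNC and 32.6% ± 0.61 in shSTIL, and XPO1 22.6% ± 0.38 and 17.1% ± 0.36 (SD, n = 3, exact permutation p = 0.1 for each). The log2 ratio of XPOT over XPO1 reads turned from -0.64 ± 0.02 to 0.82 ± 0.03 (SD, n = 3, exact permutation p = 0.1). XPOT rose and XPO1 fell without overlap, so this separation too was already fixed and its p-value adds no support.

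Levels between genes were compared only per kilobase of the longest coding transcript. The read ratios above are not divided by length, so only their change between groups is read, not their sign. In shNC the highest members were RAN (7.51 ± 0.02 on the log2 scale), RANBP1 (7.49 ± 0.06), KPNA2 (7.19 ± 0.01), CSE1L (7.11 ± 0.04) and KPNB1 (6.91 ± 0.03, SD, n = 3). RAN and RANBP1 did not differ beyond their spread between libraries, and the next 3 followed in that order by more than theirs. That spread does not measure how well the longest transcript stands for the isoforms expressed. The order between genes therefore stays uncertain. In shSTIL these 5 genes, each called lower, were at 7.22, 6.97, 6.75, 6.64 and 6.64 in the same order. Among the nucleoporins the shNC range was 3.19 (NUP42) to 5.18 (NUP88), leaving out NUP210L.

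Beyond the pore, mRNA export factors and the nuclear lamina were followed as lists, chosen with earlier results of these data known. Of 23 mRNA export factors, 8 were called lower and 10 higher, with a median log2 fold change of 0.01. Of genes whose mean log2 CPM reached 1, 31.4% were called lower and 30.5% higher. The adaptor ALYREF fell most (-0.77), followed by the cap-binding NCBP1 (-0.60), whereas ZC3H11A (0.78) and the export receptor NXF1 (0.56) rose most. Of 16 lamina and inner nuclear membrane genes, 8 were called lower and 3 higher, beside the same shares, with a median of -0.13. LMNB1, a B-type lamin, fell by 1.19 (adjusted p = 2.1e-11) and NRM by 0.94 (adjusted p = 1.3e-08) on the log2 scale. LEMD2 (0.54) and LEMD3 (0.31) rose most. The fall of the DNA replication list accompanied these changes in the same libraries, and its part in the values of the members was not tested.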

How the data were processed

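RNA-seq was performed on 3 shNC and 3 shSTIL libraries of EJ cells. Reads from a BGISEQ-500 were cleaned by the authors (SOAPnuke), aligned to transcripts (Bowtie2) and turned into estimated counts per gene (RSEM); the submitters' notes list hg38. Versions are not given in the sources used here. The deposited log2 CPM, made by the authors with edgeR, cover 15953 genes in 6 libraries, and the deposited expected counts cover 4 libraries, with 1 control, so they served only to check depth. Reads recovered from the spacing of the log2 CPM values totalled 16214790 to 16901566 per library and lay within 1.16 reads of the deposited counts of those 4 libraries; 88.7% to 89.6% were whole within 0.05.

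The log2 CPM of all genes were fitted with limma 3.58.1 (trend, no block) in R 4.3.3. Alternatives used edgeR 4.0.16 and DESeq2 1.42.0 on rounded recovered reads (edgeR called 7831 genes), other scalings, a replicate block and each library left out. Single values used exact permutation over 20 labellings. The fit was tested on simulated data. Coordinates and lengths come from GENCODE 29 (GRCh38) and promoters from RefSeq.

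Values in every library are given for the members named in full by the rule, the 8 largest called falls and the 8 largest called rises with groups apart and a mean log2 CPM reaching 1, and, chosen after its values were seen, KPNA2. Other lists name their largest called falls and rises; further genes of those lists were chosen after their values were seen. The counts of the list of other Ran and transport cofactors are not reported here. Members and lists were chosen with earlier results of these data known. Same-numbered libraries deviated from group means with correlations of -0.12, -0.06 and -0.11 over 11319 genes. These values gave no sign of pairing by number, but they cannot exclude shared handling of same-numbered libraries. Every pair of libraries within a group differed by more than sampling noise (chi-square per degree of freedom 1.70 to 3.63).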

Additional observations from a re-analysis of the deposited data

How the results depend on the processing

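Of the 37 called members, 24 kept direction and call in each fit that tested them against no change at the same threshold (14 at most), 13 lost the call in at least 1 of these, and none changed direction. Limma treat, which tests against a 1.2-fold change, lost 20 calls, so 17 members kept the call in every fit. The number of members called lower was 24, with 17 without the mean-variance trend and 12 with limma treat against 1.2-fold. It ran from 18 to 20 across the fits that each left out 1 library. The number called higher was 13, with 8 without the mean-variance trend, 5 with treat, and 8 to 11 with 1 library left out; it was 8 without shNC replicate 3 and without each shSTIL replicate, fits with fewer libraries. The median of the members, -0.08, ran from -0.0985 (without shNC replicate 3) to -0.0683 with 1 library left out. The number of DEGs among all genes was 7509, with 3317 by treat and 4900 to 5638 with 1 library left out, lowest without shSTIL replicate 3. The replicate block gave 21 members lower and 12 higher and lost the calls of KPNA3, KPNA7, NUP37 and TPR. No scaling moved the share of lower among member calls by over 10 percentage points. Uncalled members near 0 turned sign. By quantile normalization IPO4 was 0.0069 and NUP133 was 0.0048. With 1 library left out IPO4 lay between -0.026 and 0.032 on the log2 scale, IPO5 between -0.0093 and 0.044, NUP133 between -0.035 and 0.038 and NUP210L between -0.398 and 0.0888. The cause was not tested. The KPNA2 share changed by -8.28 percentage points, by -9.81 without division by length, and by -8.73 to -7.6 with 1 library left out, alternatives chosen after seeing the data. Depth limits KPNA7 and NUP210L.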
